A study of Mus musculus with 11 samples.

Results

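The genes described here are 6 of the 39179 rows of a mouse count table: Sst, Npy, Nos1, Chodl, Tacr1 and Cort. They were picked by symbol as markers of the long-range interneurons that make somatostatin, neuropeptide Y and neuronal nitric oxide synthase, and each Ensembl identifier matched 1 row. The genes were chosen with the mutant and control values of these libraries in view, so their difference between genotypes is given as a description and carries no test. All 6 passed the filter on low counts, which left 14104 genes.

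The study sorted GFP-positive cells from the V-SVZ, the ventricular and subventricular germinal tissue beside the lateral ventricles, of CD1/Swiss mice at postnatal day 2 (P2). There were 6 control libraries, genotype Gsh2-Cre; Zeb2fl/wt, and 5 mutant libraries, genotype Gsh2-Cre; Zeb2fl/ko. Both genotypes also carried RCE, a Cre-dependent GFP reporter, and both carried the Gsh2-driven Cre and a floxed allele of Zeb2, a gene of a zinc finger transcription factor. Controls are therefore not wild type: cells with active Cre would keep 1 working allele, and those of the mutants none. The ko allele of the mutants is carried by every cell of the animal, whereas Cre acts only in cells that expressed it. Whether a library was made from 1 animal or from pooled animals is not stated, so p-values measure the spread between libraries.

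Depth was 6833981 to 13073505 counts per library, with 16836 to 18649 genes detected. Levels are counts-per-million values (CPM) scaled with TMM factors, fold changes are mutant over control, and a gene passed the test at a Benjamini-Hochberg adjusted p under 0.05. Zeb2 itself stood at 238 ± 46.7 CPM (SD, n = 6) in controls and 303 ± 63.8 CPM (SD, n = 5) in mutants (edgeR quasi-likelihood adjusted p = 0.294, log2 fold change 0.35 with an SE of 0.165). A count over the whole gene includes exons outside the deleted stretch, so it does not check the genotype. Counts of 4 Y-linked genes were 0 in all 5 mutant libraries and in controls 4 and 5, and lay between 763 and 2716 in controls 1, 2, 3 and 6. Sex and genotype are therefore partly confounded, and values from the 7 libraries without Y-linked counts are given beside the results. Control 6 and mutant 5 stood apart from the rest of their groups. Control 6 had the highest sum of oligodendrocyte precursor markers, 2410 CPM against 807 to 1305 CPM in the other controls. Mutant 5 held 204 CPM of Ttr, a choroid plexus gene that was under 1 CPM in the other 10 libraries.

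Somatostatin and neuropeptide Y are secreted peptides that damp the activity of target neurons. Most cortical interneurons that make somatostatin arise in the medial ganglionic eminence (MGE) under the transcription factors Nkx2-1, Lhx6 and Sox6. A rare class of them makes somatostatin together with neuropeptide Y, neuronal nitric oxide synthase, chondrolectin and the substance P receptor, sends long axons, and is active in sleep. Striatal interneurons of the same lineage share several of these genes. Cortistatin is a peptide closely related to somatostatin and made by a partly different set of interneurons.

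Start regions of 4 of the genes are printed to show what precedes these peptide and lectin genes, since the Sst promoter is a textbook target of cyclic AMP signalling through CREB. Sequences are from RefSeq (GRCm38.p6), 5′ to 3′ on the gene's strand, and capitals mark matches to the motifs searched on both strands in the 250 bases before the RefSeq start. The Sst stretch is limited to the 30 bases around its match, at chr16:23890877-23890906, minus strand, because GENCODE starts the gene's first exon 114 bases further upstream. The Npy stretch is chr6:49822460-49822709 on the plus strand, the Chodl stretch chr16:78930698-78930947 on the plus strand and the Cort stretch chr4:149126764-149127013 on the minus strand.
Sst: ggcgcctccttggcTGACGTCAgagagaga
Npy: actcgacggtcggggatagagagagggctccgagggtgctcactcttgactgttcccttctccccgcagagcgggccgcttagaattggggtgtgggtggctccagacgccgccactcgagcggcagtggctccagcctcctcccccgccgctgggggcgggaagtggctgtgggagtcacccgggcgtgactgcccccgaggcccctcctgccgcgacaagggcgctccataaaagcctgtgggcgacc
Chodl: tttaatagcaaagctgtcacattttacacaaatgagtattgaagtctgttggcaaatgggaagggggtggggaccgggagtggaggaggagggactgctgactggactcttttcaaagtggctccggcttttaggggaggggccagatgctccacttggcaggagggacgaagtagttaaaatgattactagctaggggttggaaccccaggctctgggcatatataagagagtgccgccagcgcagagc
Cort: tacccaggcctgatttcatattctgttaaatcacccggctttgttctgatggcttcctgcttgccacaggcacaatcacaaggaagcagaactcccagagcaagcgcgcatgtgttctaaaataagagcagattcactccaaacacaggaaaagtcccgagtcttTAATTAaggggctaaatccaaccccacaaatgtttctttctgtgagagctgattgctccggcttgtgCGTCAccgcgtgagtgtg

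The octamer TGACGTCA, the cyclic AMP response element (CRE), begins 48 bases before the RefSeq start of Sst and was found in no other of the 6 genes. Of all 32851 promoters in the table, 1.55% hold it. Its shorter core TGACG, which lies inside the octamer in Sst, also occurs before Tacr1 and Cort and in the window assigned to Nos1, and 17.8% of all promoters hold it. In GENCODE the Nos1 window is intron: the RefSeq start is the first base of an internal exon, 85807 bases inside the gene, and no GENCODE transcript begins there. Nos1 is therefore not printed, and its matches say nothing of its promoter. That window also holds CACCTG, the E-box bound by Zeb2, at base -170, and no other gene of the 6 has that E-box in its 250 bases (17.2% of all promoters do). The homeodomain core TAATTA was found before Cort (4.84% of all promoters), and TATAAA before none of the 6 (12.4% of all promoters). These matches describe letters in a window, not binding.

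Sst (ENSMUSG00000004366, chromosome 16, 23889573 to 23890958, minus strand, GRCm38) encodes the somatostatin precursor. Its level in controls ranged from 46.0 to 115 CPM with a median of 107 CPM. Mutants 1 to 5 held 744, 788, 617, 643 and 514 CPM. Every mutant library lay above every control, with control 6 lowest of all and mutant 5 lowest of the mutants. The means were 93.6 ± 28.1 CPM (SD, n = 6) in controls and 661 ± 108 CPM (SD, n = 5) in mutants, a log2 fold change of 2.82 (SE 0.210) or 7.07-fold. In such bulk libraries, more cells of a type and more RNA per cell cannot be told apart.

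Npy (ENSMUSG00000029819, chromosome 6, 49822710 to 49829507, plus strand) encodes neuropeptide Y. Controls ranged from 104 to 276 CPM, with a median of 239 CPM. The 5 mutant libraries held, from 1 to 5, 1700, 1586, 1341, 1296 and 1115 CPM. The groups again did not overlap, and the same libraries, control 6 and mutant 5, were the lowest of their groups. Mean levels were 214 ± 64.0 CPM in controls (SD, n = 6) and 1408 ± 234 CPM in mutants (SD, n = 5), with a log2 fold change of 2.72 (SE 0.208), 6.57-fold.

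Nos1 (ENSMUSG00000029361, chromosome 5, 117781032 to 117958840, plus strand) encodes neuronal nitric oxide synthase, which makes the gas transmitter nitric oxide from arginine. Its control range was 13.5 to 33.9 CPM around a median of 16.7 CPM. In mutants 1 to 5 it stood at 226, 223, 297, 214 and 169 CPM. No mutant library reached down to the control range, and the step was the largest in fold among the 6 genes: a log2 fold change of 3.55 (SE 0.223), 11.7-fold, from 19.4 ± 7.41 CPM (SD, n = 6) to 226 ± 45.8 CPM (SD, n = 5). Control 1 was the highest control, and mutant 3, not mutant 1 or 2, was the highest mutant. The antisense gene Gm26995 overlaps 268 exon bases of Nos1 and averaged 0.0699 CPM by library totals over all libraries, far below either level.

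Chodl (ENSMUSG00000022860, chromosome 16, 78930948 to 78951733, plus strand) encodes chondrolectin, a membrane protein with a C-type lectin domain. It was the steadiest of the 6 across controls, between 10.9 and 15.6 CPM with a median of 14.1 CPM. Mutants 1 to 5 held 155, 126, 108, 112 and 71.7 CPM. Control 6, the lowest control for Sst and Npy, was not low for Chodl at 14.1 CPM, while mutant 5 was again the lowest mutant. The groups did not overlap, at 13.6 ± 1.79 CPM (SD, n = 6) and 115 ± 30.4 CPM (SD, n = 5), a log2 fold change of 3.07 (SE 0.186), 8.42-fold.

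Tacr1 (ENSMUSG00000030043, chromosome 6, 82402334 to 82560104, plus strand) encodes the receptor of substance P. Control values lay between 4.16 and 9.20 CPM with a median of 6.13 CPM. Mutants 1 to 5 were at 40.7, 27.3, 29.1, 25.6 and 8.89 CPM. Here the groups overlapped through a single pair, mutant 5 lying below control 4, while the other 4 mutant libraries were above all controls. The means, 6.35 ± 1.68 CPM (SD, n = 6) and 26.3 ± 11.4 CPM (SD, n = 5), gave a log2 fold change of 2.05 (SE 0.319), 4.13-fold.

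Cort (ENSMUSG00000028971, chromosome 4, 149125034 to 149126763, minus strand) did not share the direction of the other 5. It rested on 8 to 41 counts per control library and on 9, 1, 12, 10 and 19 counts in mutants 1 to 5. These counts correspond to 0.836 to 3.30 CPM in controls, with a median of 1.58 CPM, and to 0.691, 0.1003, 1.31, 0.750 and 1.58 CPM in the mutants. The groups overlapped, and the means of 1.90 ± 1.01 CPM (SD, n = 6) and 0.886 ± 0.578 CPM (SD, n = 5) differed by a log2 fold change of -1.10 with an SE of 0.617.

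**Figure D1:**
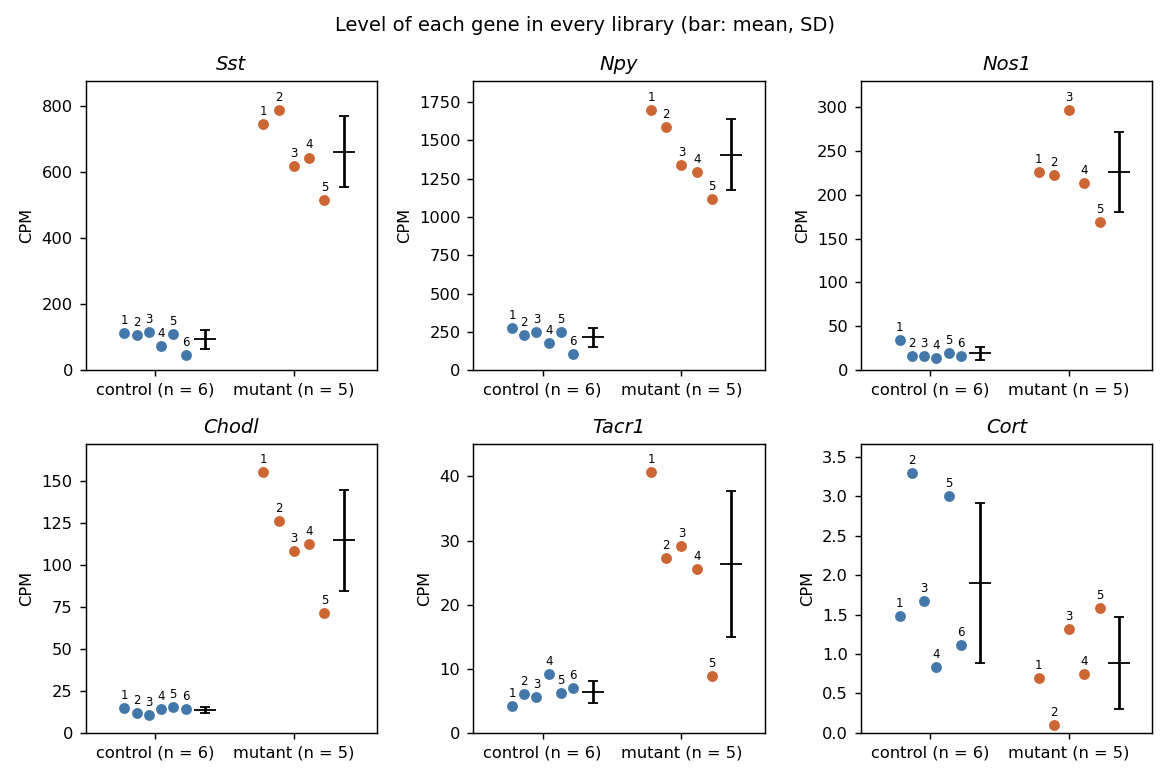
Level in CPM (vertical axis, linear, from 0) of the 6 genes in each of 6 control and 5 mutant libraries, numbered as labelled, with the mean and SD of each group as a bar beside the points. Mutant points stand above all control points for Sst, Npy, Nos1 and Chodl, mutant 5 falls among the controls for Tacr1, and the groups are mixed for Cort.

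Of the 6 genes, 5 had a higher level in mutants past an adjusted p of 0.05 in the edgeR fit, and Cort did not pass. Over all 14104 genes tested 4.42% passed, 2.68% as higher in mutants and 1.74% as lower. For 4 of the 6, all mutant libraries lay above all controls, which held for 2.89% of all genes. Because the genes were selected on this contrast, nothing is read from these shares. The median log2 fold change of all genes tested was -0.02.

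For Sst, Npy, Nos1 and Chodl the fold changes moved little with the libraries used. Among the 7 libraries without Y-linked counts the log2 fold changes were 2.88 for Sst, 2.73 for Npy, 3.77 for Nos1, 2.95 for Chodl, 1.77 for Tacr1 and -1.09 for Cort. The SE of Tacr1 grew from 0.319 to 0.501 there. As a description of genes chosen on this contrast, 4 of the 6 passed the threshold there, Tacr1 no longer among them. The same held with the Y-linked level as covariate. Among all genes, edgeR called 218 with the 7 libraries and 186 with the covariate, against 623 in the main fit. How many genes were tested in either of these fits is not given here, so nothing is read from the 4. The 2 controls among the 7 libraries, controls 4 and 5, held 72.4 and 108 CPM of Sst and 13.5 and 19.8 CPM of Nos1. These values lay inside the range of the other 4 controls or just below it. Without control 6 and mutant 5, a setting chosen after seeing the data, the log2 fold changes were 2.76 for Sst, 2.65 for Npy, 3.60 for Nos1, 3.21 for Chodl, 2.29 for Tacr1 and -1.53 for Cort. Tacr1 thus differed by 0.52 on the log2 scale between those settings, the widest gap of the 5 genes higher in mutants. That gap was larger than the SE of its fold change with all libraries (0.319). It was smaller than 1 SD between its replicates (0.57), which describes single libraries.

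**Figure D2:**
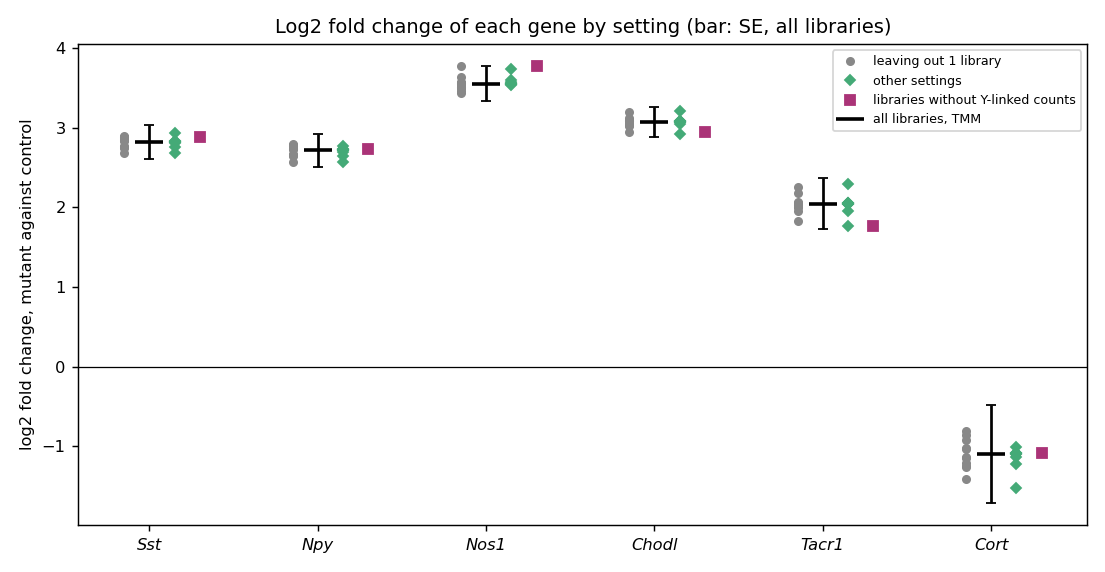
Log2 fold change, mutant against control (vertical axis), of each of the 6 genes: the fit on all libraries with its SE (black), fits that leave out 1 library (grey), other scalings, filters, tools and covariates (green) and the 7 libraries without Y-linked counts (purple). The points of Sst, Npy, Nos1 and Chodl span at most 0.35, those of Tacr1 run from 1.77 to 2.29 and those of Cort from -1.53 to -0.81.

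On the scale of CPM per kilobase of merged exons, which allows levels of different genes to be compared, Npy led in both genotypes. In controls it averaged 378 ± 113 CPM per kilobase (SD, n = 6), followed by Sst at 130 ± 39.0, and neither range overlapped the next. Cort (2.81), Chodl (2.48), Nos1 (1.74) and Tacr1 (0.978 CPM per kilobase) formed a low group in which the ranges of each neighbouring pair overlapped. In mutants the order was Npy at 2487 ± 414 CPM per kilobase (SD, n = 5), Sst at 917 ± 150, then Chodl at 20.9 and Nos1 at 20.2 with overlapping ranges, Tacr1 at 4.05 and Cort at 1.31, these last also overlapping. By mean level per length Cort ranked 3 in controls, far below Sst, and was above Chodl in 3 of the 6 libraries. In mutants it ranked 6, with Tacr1 above it in 4 of the 5 libraries. Its place among the low genes is therefore not settled.

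Npy and Sst kept a nearly fixed proportion. The count of Npy over that of Sst was 2.14 to 2.42 in the 6 controls (2.29 ± 0.121, SD) and 2.01 to 2.29 in the 5 mutants (2.13 ± 0.117, SD), although the highest control exceeded the lowest 2.50-fold for Sst and 2.66-fold for Npy. The ranges of this ratio overlapped between genotypes. Ratios to Sst were looser for the other genes: 0.136 to 0.363 in controls and 0.282 to 0.481 in mutants for Nos1, and 0.0944 to 0.305 against 0.139 to 0.209 for Chodl. The mutant range of Chodl thus lay inside its control range. For Tacr1 the ratio was 0.0366 to 0.151 in controls and 0.0173 to 0.0547 in mutants, with a lower mean in mutants, unlike that of Nos1. All 3 of these ratios overlapped between genotypes. Control 6 had the highest control ratio of both Nos1 and Chodl to Sst, since its Sst was low and its Nos1 and Chodl were not.

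Count ratios to wider neuronal genes are given as a description, since the 6 genes were chosen on this contrast. Lhx6, the MGE transcription factor that marks this lineage, gave count ratios of Sst over Lhx6 of 0.654 to 1.38 in controls and 1.65 to 2.03 in mutants. Sst over Gad2, the gene of a GABA-synthesising enzyme carried by most inhibitory neurons, was 0.171 to 0.375 in controls and 0.816 to 1.20 in mutants. Neither ratio overlapped between genotypes. For Nos1, the ratio to Lhx6 was 0.138 to 0.412 in controls and 0.521 to 0.793 in mutants, and for Chodl 0.0966 to 0.199 and 0.261 to 0.358, also without overlap. Tacr1 over Lhx6 did overlap, at 0.0492 to 0.107 in controls and 0.0324 to 0.0938 in mutants.

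Among the 6 controls alone, which hold no genotype difference, Sst and Npy had a Pearson r of 0.990 on the log2(CPM + 1) scale (exact permutation p = 0.0111, 0.167 after Benjamini-Hochberg adjustment over 15 pairs of the 6 genes). Spearman's rho was 0.83 (exact permutation p = 0.0583, adjusted 0.438). Without controls 4 and 6, the farthest from the Sst median, r was 0.708 over 4 libraries, so the high value rests largely on those. No pair of the 6 genes passed the adjusted threshold. The measures share library and depth.

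**Figure D3:**
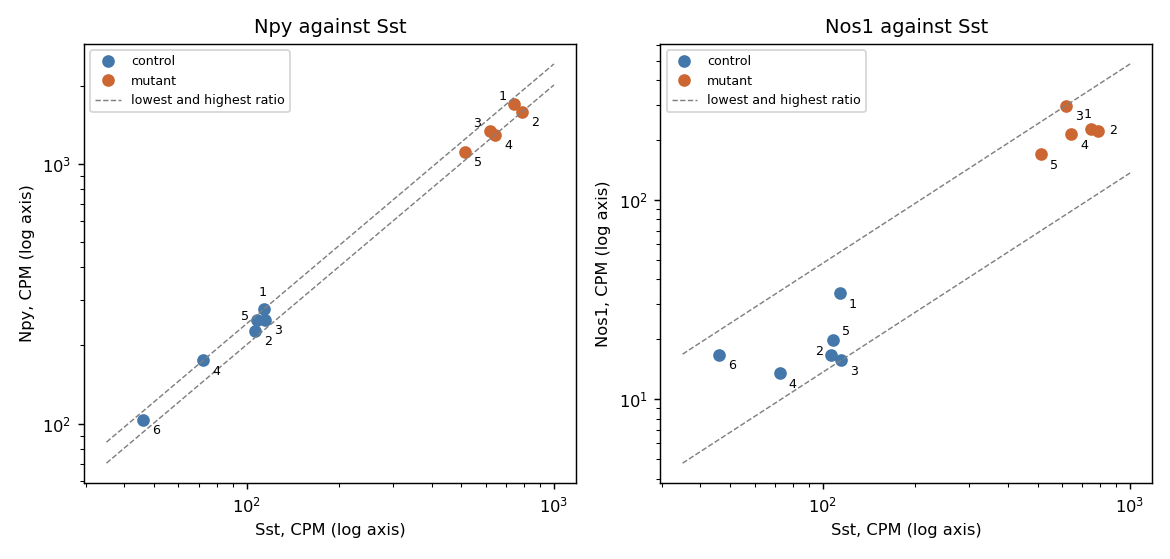
Npy (left) and Nos1 (right) against Sst in CPM, both axes logarithmic, for 6 control and 5 mutant libraries numbered as labelled, with dashed lines at the lowest and highest ratio over the 11 libraries. Npy follows Sst within a narrow band in both genotypes (count ratio 2.01 to 2.42), while Nos1 spreads from 0.136 to 0.481 of the Sst count.

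Genes with the most similar profile were sought among 11252 others with a mean of at least 5 CPM, as the root mean square difference over the 11 libraries between log2(CPM + 1) values centred on each gene's control mean. This measure is dominated by the genotype step, so it is a description. The filter took the mean over all libraries, so a gene that is low in controls could pass only by being high in mutants. Npy was the closest to Sst, at 0.0956, against a median of 2.00 over all genes. Then came Spock1, the gene of the proteoglycan testican-1 (0.335), and Htr1a, the gene of a serotonin receptor (0.390). ENSMUSG00000097348 (0.415) and ENSMUSG00000071860 (0.419), identifiers that the tables used here pair with no symbol, completed the 5. The same 4 genes after the first, in another order, were closest to Npy. Chodl ranked sixth for likeness to Sst (0.423), Nos1 ranked 14 (0.598) and Tacr1 ranked 75 (0.960). Spock1 stood at 9.33 ± 2.46 CPM in controls (SD, n = 6) and 85.8 ± 20.2 CPM in mutants (SD, n = 5), and Htr1a at 2.46 ± 1.05 and 25.3 ± 9.70 CPM. Htr1a and both identifiers without a symbol (2.09 and 2.00 CPM in controls) passed the filter through the mutant libraries, which in part fixes their likeness to Sst.

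Receptors of the peptides came next among 126 related genes on 10 lists, of which 97 were tested, 13 were higher in mutants (13.4%, against 2.68% of all genes) and 3 lower (3.09%, against 1.74%). Their median log2 fold change was -0.00015. The lists were chosen with earlier results of these data known, so nothing is read from these shares. Adjusted p-values of list genes carry the same limit. Of 4 somatostatin receptor genes tested, 1 rose: Sstr2, whose product couples to inhibitory G proteins, went from 43.7 ± 10.6 CPM (31.2 to 60.8, n = 6) to 207 ± 22.2 CPM (193, 210, 243, 186 and 203 in mutants 1 to 5), a log2 fold change of 2.25 (SE 0.158, edgeR adjusted p = 7.87e-07). The median over the 4 was 0.60. Sstr2 kept its call in all 11 fits that left out a library and among the libraries without Y-linked counts.

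Of 3 genes of the NPY family and its receptors that were tested, 1 passed. Npy2r, a receptor found on nerve endings, was at 1.45 ± 2.20 CPM in controls, 3 of them at 0, and at 11.98, 26.7, 24.9, 12.1 and 14.95 CPM in mutants 1 to 5 (edgeR adjusted p = 0.0343, log2 fold change 3.64 with an SE of 0.912). That call was lost in 6 of the 11 fits leaving out a library (controls 1 and 4 and mutants 1 to 4), among libraries without Y-linked counts (adjusted p = 0.143, log2 fold change 3.24), with the Y-linked level as covariate, with no filter and with DESeq2. Controls 3 and 5 held 4.64 and 3.89 CPM, and control 1 held 0.149 CPM. The fitted fold change rests on these uneven control libraries and is no bound.

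Neither of the 2 tachykinin genes tested passed in edgeR or DESeq2. With edgeR 1 of them had an unadjusted p under 0.05, without the share of all genes beside it, so nothing is read from that. Tac1, the gene of the substance P precursor, was at 9.72 ± 4.90 CPM in controls (SD, n = 6) and 5.84 ± 2.77 CPM in mutants (SD, n = 5). Tacr3, the neurokinin B receptor gene, was at 0.909 ± 0.940 and 4.27 ± 2.60 CPM (edgeR adjusted p = 0.160).

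On the nitric oxide and cyclic GMP side of Nos1, 20 genes were tested, with a median log2 fold change of -0.09: 1 rose and 3 fell. The 3 include 2 of the 3 tested subunit genes of the nitric oxide receptor, soluble guanylate cyclase. Gucy1a1 fell from 601 ± 274 CPM (309 to 1026, n = 6) to 237 ± 40.7 CPM (257, 263, 234, 168 and 265 in mutants 1 to 5), a log2 fold change of -1.34 (SE 0.263, edgeR adjusted p = 0.00737), and no mutant library reached the lowest control. Gucy1b1 went from 204 ± 62.2 to 118 ± 20.0 CPM (edgeR adjusted p = 0.0291, log2 fold change -0.79 with an SE of 0.191). Gucy1a2, the other subunit gene tested and chosen for mention after its values were seen, was at 7.28 CPM in controls and 10.6 CPM in mutants (edgeR adjusted p = 0.442). The Gucy1b1 call was lost in 5 of 11 fits leaving out a library (control 2 and mutants 1, 3, 4 and 5) and among libraries without Y-linked counts (adjusted p = 0.119), where its log2 fold change was -0.93. It was also lost with the Y-linked level as covariate and without control 6 and mutant 5 (edgeR adjusted p = 0.0548).

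Phosphodiesterases break down cyclic nucleotides. Their genes were no planned list and are drawn from the nitric oxide list and the cyclic AMP list below. Of 6 tested, 1 rose, 1 fell and 4 did not pass, while 4.42% of all genes tested passed. The 2 that passed are also in the nitric oxide counts above, so nothing is read from this count. Pde10a, best known from striatal projection neurons, fell from 134 ± 27.3 to 52.3 ± 17.6 CPM (edgeR adjusted p = 0.00162, log2 fold change -1.36 with an SE of 0.217). Pde1a, a calcium-dependent enzyme, rose from 5.92 ± 3.65 to 27.3 ± 6.16 CPM (edgeR adjusted p = 0.00456, log2 fold change 2.21 with an SE of 0.404). Among libraries without Y-linked counts Pde1a had a log2 fold change of 1.84 and an edgeR adjusted p of 0.0569. Its call was also lost with the Y-linked level as covariate. Layn, the close relative of Chodl, was below the filter.

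Dense core vesicles store and mature the peptides of Sst and Npy. Of 16 genes of peptide processing and these vesicles, 3 rose, and the median log2 fold change was 0.10. Pam, which amidates peptides such as neuropeptide Y, rose by a log2 fold change of 0.71 (SE 0.132, edgeR adjusted p = 0.00506), the granin gene Chgb by 0.90 (SE 0.188, adjusted p = 0.0111) and the granin gene Scg2 by 1.01 (SE 0.248, adjusted p = 0.0315). Exons of Pam overlap 188 bases of B230216N24Rik, at a mean of 2.64 CPM by library totals over all libraries. Among libraries without Y-linked counts none of these 3 calls held, at log2 fold changes of 0.77 for Pam, 0.64 for Chgb and 0.74 for Scg2 (adjusted p = 0.0812, 0.214 and 0.338), and Scg2 was lost in 7 of 11 fits leaving out a library (controls 2, 3 and 4 and mutants 1 to 4). None of the 3 held with the Y-linked level as covariate, and Scg2 was also lost with replicate number as a block.

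Of 14 tested genes known from somatostatin interneurons in general, 3 rose and 11 did not pass, with a median log2 fold change of 0.68. DESeq2 called 5 as higher and 1 as lower on this list, adding Crhbp and Calb1 as higher and Nr2f2 as lower, which are named here because of those calls. Cbln4, a secreted organiser of inhibitory synapses, was at 6.72 ± 1.30 CPM in controls and 27.5 ± 4.32 CPM in mutants, with no overlap (edgeR adjusted p = 2.91e-05, log2 fold change 2.02 with an SE of 0.200). Nxph1, a neurexin ligand, rose from 116 ± 17.9 to 248 ± 75.5 CPM (log2 fold change 1.10) and Grin3a, an NMDA receptor subunit gene, from 33.7 ± 4.02 to 77.6 ± 23.9 CPM (1.20). Mutant 4, at 37.0 CPM of Grin3a, lay within the control range of 27.9 to 39.6 CPM. Among libraries without Y-linked counts Cbln4 kept its call, while Nxph1 (log2 fold change 1.12) and Grin3a (1.38) had edgeR adjusted p-values of 0.0852 and 0.0850. With the Y-linked level as covariate Nxph1 also lost its call, and Grin3a kept its own. The part of sex in these losses was not tested.

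Of 11 tested factors of the MGE lineage, 3 rose and 8 did not pass, and the median log2 fold change was -0.00015. Sox6 rose from 108 ± 10.2 to 571 ± 111 CPM (edgeR adjusted p = 1.02e-07, log2 fold change 2.40 with an SE of 0.125), Lhx6 from 94.4 ± 19.1 to 364 ± 59.2 CPM (1.94, SE 0.151, adjusted p = 2.02e-06) and Nkx2-1 from 12.9 ± 6.26 to 64.7 ± 15.4 CPM (2.31, SE 0.303, adjusted p = 3.62e-04). All 3 held among libraries without Y-linked counts.

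Of 7 tested genes that mark other interneuron classes, 1 passed, and the median log2 fold change was -0.47. Calb2, the calretinin gene, rose from 20.3 ± 13.03 CPM to 219, 337, 370, 232 and 305 CPM in mutants 1 to 5 (edgeR adjusted p = 1.69e-05, log2 fold change 3.87 with an SE of 0.359). Calretinin is carried by several interneuron classes and, in part, by somatostatin interneurons.

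No gene of the cyclic AMP and CREB list, the pathway that acts on the CRE printed above for Sst, passed among 21 tested. Over all genes tested, 4.42% passed. These are RNA levels, and any part of this pathway in the Sst level was not tested. With edgeR 6 of the 21 had an unadjusted p under 0.05, and DESeq2 called 0. The share of all genes under that unadjusted level is not given here, so nothing is read from the 6. The median log2 fold change was 0.05. Its most abundant genes encode regulatory subunits of protein kinase A: Prkar1a was at 750 ± 40.6 CPM in controls and 821 ± 67.5 CPM in mutants, and Prkar1b at 315 ± 36.5 and 379 ± 54.4 CPM, neither difference passing (edgeR adjusted p = 0.454 and 0.241).

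**Figure D4:**
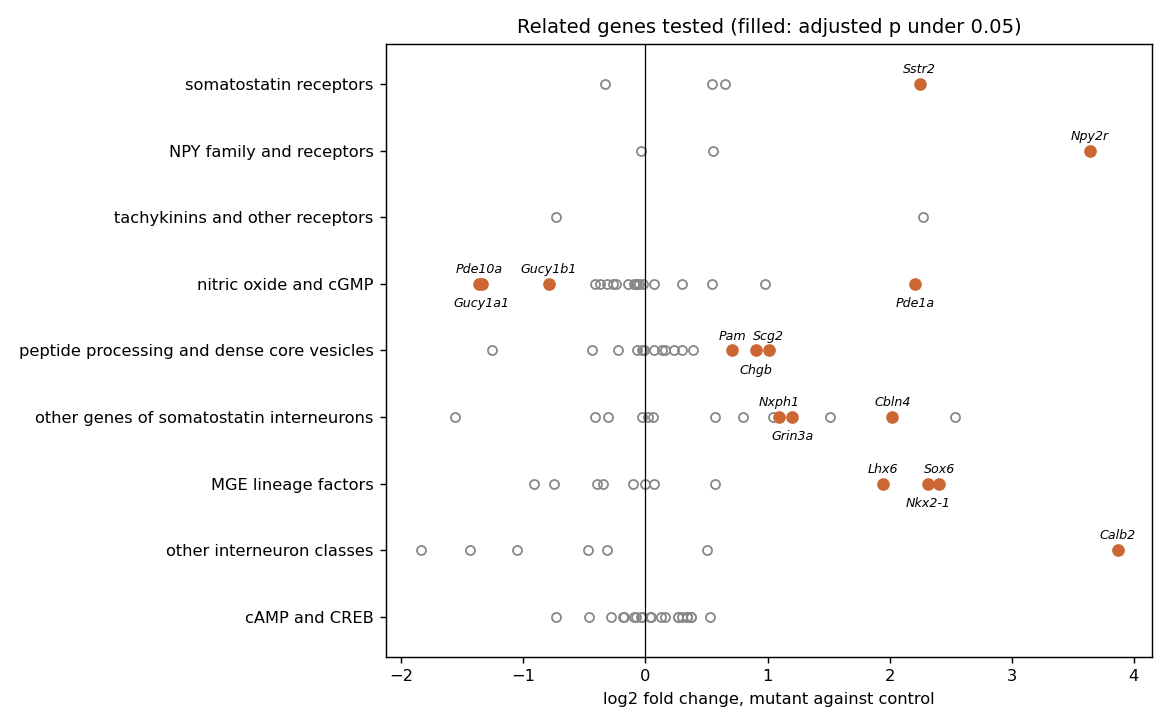
Log2 fold change, mutant against control (horizontal axis), of the tested genes of 9 lists around the 6 genes (rows), with filled points and names for an edgeR adjusted p under 0.05. Among the filled points, Sstr2, Npy2r, Pde1a, Cbln4, Lhx6, Nkx2-1, Sox6 and Calb2 stand at or beyond 1.94, and Pde10a, Gucy1a1 and Gucy1b1 lie below 0. The open points of Crhbp and Tacr3 also lie beyond 1.94.

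Markers of other cells were read beside these values. Summed neuronal markers reached 6077 to 7552 CPM in controls and 6051 to 7538 CPM in mutants, with 1 of 7 genes, Gad2, past the threshold. Hypothalamic neurons also make Sst and Npy: their 8 markers summed to 1.57 to 7.42 CPM in controls and 1.20 to 2.81 CPM in mutants, and 7 of the 8 were under 5 CPM, among them Hcrt, Pmch and Agrp. Cortical excitatory markers summed to 8.41 to 57.3 CPM and 22.2 to 84.6 CPM. Oligodendrocyte precursor markers summed to 807 to 2410 CPM in controls and 602 to 963 CPM in mutants, with 1 of 6, Gpr17, lower. Astrocyte, microglial, vascular and blood sums had overlapping ranges. The part of these differences in the levels of the 6 genes was not tested.

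Control 6, lowest of the controls for Sst and Npy, also had the least Gad2 (216 CPM) and Dcx (540 CPM), genes of inhibitory and of young neurons, and the most Pdgfra (517 CPM), a gene of oligodendrocyte precursors. Mutant 5, lowest of the mutants for 5 of the 6 genes, had the least Gad2 (553 CPM) and Dcx (971 CPM) of its group and carried Ttr and 12.2% of its counts on the gene Gm42418, against 6.25% to 9.79% in the other 10 libraries. Whether these features set the levels of the 6 genes in the 2 libraries was not tested.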

How the data were processed

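RNA of sorted V-SVZ cells was sequenced after TruSeq library preparation, per the labels' protocols. The authors deposited raw read counts per Ensembl gene, 1 column per library. Per the submitters' processing notes, the tools were TopHat2 2.0.13 and featureCounts 1.4.6, with mm10 and GRCm38 as builds. Not given in the sources used here were the annotation release, strand setting and treatment of multiply aligned reads, so genes on opposite strands and near-identical copies could share reads.

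Coordinates and exon lengths came from GENCODE M21, and start regions from RefSeq, where all 6 genes matched. Symbols came from GENCODE M21 and, for identifiers absent there, from a list of gene names. In this way 37693 of 39179 identifiers had a symbol. The test over genes was that of edgeR 4.0.16, run in R 4.3.3 (filterByExpr, TMM, robust quasi-likelihood fit, 6 control against 5 mutant libraries), with Benjamini-Hochberg adjustment over 14104 genes, called at 0.05. Adjusted p-values come from it unless DESeq2 1.42.0 is named. CPM values are scaled by TMM unless library totals are named. On simulated counts of 14104 genes the test recovered 47% of 2-fold and 84% of 4-fold changes, with 5 unchanged genes among 136 calls. No 2 replicates agreed within sampling noise: over 25 pairs the chi-square divided by its degrees of freedom was 13.7 or more.

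The 6 genes and all lists were chosen with earlier results of these data known. Named are the 6 genes, list genes past the threshold (or, where none passed, the 2 most abundant) and the 5 genes most like Sst and Npy. Kiss1 and Pde2a were not analysed here, nor were protein sequences, and 1 list gene is not reported here and was left out of the list counts.

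Alternatives were RLE scaling, library totals, no filter, a stricter filter (1 CPM in 5 libraries), DESeq2, a replicate block, the Y-linked level as covariate, libraries without Y-linked counts and leaving out each library. Leaving out control 6 with mutant 5, and leaving out Gm42418, were added after seeing the data.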

Additional observations from a re-analysis of the deposited data

Results flagged for a closer look

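Of 54 groups of libraries checked for a value far from the rest, 2 held one, and chance alone gives about 1 in 20. Nos1 in control 1 stood at 33.9 CPM, against 13.5 to 19.8 CPM in the other 5 controls. Prkar1a in control 5 stood at 827 CPM, against 716 to 756 CPM in the other 5 controls. Both values lie inside or below the mutant range of their gene.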

How the results depend on the processing

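The log2 fold changes of the 6 genes kept their sign in every setting run: 2.68 to 2.93 for Sst, 2.57 to 2.80 for Npy, 3.43 to 3.78 for Nos1, 2.93 to 3.21 for Chodl, 1.77 to 2.29 for Tacr1 and -1.53 to -0.81 for Cort. No value moved by more than 1 SD between replicates, a spread of single libraries and not the uncertainty of a fold change. The same 5 genes passed the threshold as with all libraries, except that Tacr1 did not under both Y-linked settings. As the 6 genes were chosen on this contrast, these calls are a description and no test. Counts of genes called over the whole table did move. DESeq2 called 1210 genes, 665 higher and 545 lower. With the Y-linked level as covariate edgeR called 186 (120 higher, 66 lower), and among the libraries without Y-linked counts 218 (150 and 68). The part of sex or of the number of libraries in these drops was not tested. Leaving out 1 library gave 418 to 656 calls, 269 to 405 higher and 149 to 251 lower, the lower calls dropping to 162 without control 4 and to 156, 149 and 160 without mutants 1, 3 and 4. The counts of related genes were 11 to 15 higher and 2 to 3 lower when 1 library was left out, and 7 higher and 2 lower under both Y-linked settings. Same-numbered libraries did not deviate together (r between -0.18 and 0.02 over 5 pairs), and the replicate block, which drops control 6, left 143 lower calls. Of the 5 genes most like Sst, 3 were shared among libraries without Y-linked counts, and of those most like Npy 3 there and 3 with log2(CPM + 0.5); the cause was not tested. In the window of 300 bases the E-box was found for 2 of the 6 genes, Cort being added. The planned comparison of the Sst and Cort proteins was not run. Cort, at 8 to 41 counts per control library, is limited by depth.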
